A study of Mus musculus with 5 samples.

Results

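Chromatin bound by IRF8 in germinal centre (GC) B cells, with no IRF4 or IRF8 peak at the same place in B cells cultured with lipopolysaccharide (LPS), is described here. Chromatin immunoprecipitation followed by sequencing (ChIP-seq) gave 1826 IRF8 intervals in GC B cells. Of these, 1465 (80.2%, exact 95% interval 78.3 to 82.0%) overlapped no peak of the 4 LPS lists by even 1 base, and are called GC-alone intervals. The other 361 are called shared intervals. Members were chosen by the measured peak calls of all 5 libraries, so the overlap itself, and the interval width that bears on it, are descriptions and were not tested.

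All cells came from wild-type C57BL/6 mice. For the LPS groups, naive B cells of the spleen were cultured with 10 µg/ml LPS for 48 or 72 h and precipitated with an antibody against IRF4 (M-17) or IRF8 (C-19), which makes 4 groups. For the fifth group, GC B cells were sorted 13 days after immunisation with NP-KLH, frozen, handed to a service company and precipitated with the same IRF8 antibody (C-19). Each group had 1 library, no input library was analysed here, and the sources used here do not say whether cells of several mice were pooled. They give neither the sort gate nor its purity, so the labelled cell type rests on the sort, and a peak list holds no transcript by which to check it. The LPS lists were called with HOMER at a fixed peak size of 500 bp, and the GC list with MACS without a score. Cell state, caller, laboratory and freezing therefore cannot be told apart in any statement about what the LPS lists lack. Tests below compare intervals of 1 list with each other or with neighbouring sequence, and their p-values describe these intervals and not mice or cultures.

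IRF8 is a transcription factor of the interferon regulatory factor family that is abundant in GC B cells, whereas its relative IRF4 rises as activated B cells become plasma cells. IRF proteins contact the bases GAAA. They bind tandem GAAA repeats, the interferon-stimulated response element (ISRE), and bind composite elements together with an ETS factor such as PU.1 or SPIB (the EICE) or with an AP-1 factor such as BATF (the AICE). Many genes induced by interferon, among them those of antigen presentation on MHC class I, carry ISREs at their promoters.

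The ISRE was searched as GAAANNGAAA and the EICE as GGAANNGAAA, on both strands. The windows below are from GC-alone intervals near genes of different roles, and come from 10 of the 16 gene lists described further on. In each list the ISRE nearest to a transcription start site (TSS) was taken, or the EICE where the list had no ISRE, among single-copy intervals without the long purine runs described further on. Each is 80 bases of the mm9 genome, or 30 bases where the annotation has an untranslated region nearby, with the element in capitals.
Psme1, a proteasome activator subunit, chr14:56197330-56197359, minus strand: agcgggaaggGAAAGCGAAAgcacagctcg
Ctss, cathepsin S, chr3:95330677-95330706, plus strand: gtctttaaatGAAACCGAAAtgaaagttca
Ifih1, the RNA sensor MDA5, chr2:62484261-62484290, minus strand: gaagagaatcGAAACAGAAAccgatctgtg
Tgtp1, an interferon-induced GTPase, chr11:48805781-48805860, minus strand: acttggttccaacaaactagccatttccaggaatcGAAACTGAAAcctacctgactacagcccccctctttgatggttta
Cflar, an inhibitor of caspase 8, chr1:58768306-58768385, minus strand: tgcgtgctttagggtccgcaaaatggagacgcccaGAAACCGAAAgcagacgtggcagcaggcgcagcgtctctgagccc
Tlr6, a Toll-like receptor, chr5:65350477-65350556, plus strand: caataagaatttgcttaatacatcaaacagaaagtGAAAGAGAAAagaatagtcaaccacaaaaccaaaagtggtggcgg
Prdm1, the plasma cell regulator Blimp-1, chr10:44249377-44249456, minus strand: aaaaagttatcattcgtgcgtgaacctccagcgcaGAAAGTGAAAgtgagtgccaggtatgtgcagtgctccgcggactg
Zfp36l1, an RNA-binding protein, chr12:81212608-81212687, plus strand: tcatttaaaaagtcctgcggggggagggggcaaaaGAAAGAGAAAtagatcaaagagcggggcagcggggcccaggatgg
Prkcb, a protein kinase C of B cell receptor signalling, chr7:129440250-129440329, minus strand: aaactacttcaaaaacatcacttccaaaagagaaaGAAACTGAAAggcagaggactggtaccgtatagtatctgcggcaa
Mybl1, a GC transcription factor and the one EICE of the set, chr1:9693227-9693306, minus strand: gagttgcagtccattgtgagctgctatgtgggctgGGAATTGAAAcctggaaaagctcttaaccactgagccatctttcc
A match is a description of letters and does not show that a factor sat there.

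Most GC-alone intervals lay more than 10000 bp from any LPS peak. The LPS lists hold only 234 to 1573 peaks each, and gaps of other places in the genome were not measured. The gap to the nearest LPS peak had a median of 143909 bp, with quartiles of 37799 and 411519 bp. An LPS peak lay within 1000 bp of 33 GC-alone intervals (2.25%) and within 10000 bp of 159 (10.9%). Members just inside the limit included the intervals at Gadd45g, with a gap of 32 bp, and closest to Ankrd44 (44 bp), Ceacam16 (71 bp) and Filip1l (98 bp). The 5 shared intervals just past the limit were those closest to Il28ra, with 39 bp in common with an LPS peak, D14Abb1e (87 bp), Lrmp (102 bp), Vrk1 (159 bp) and Ifnk (167 bp). Counting as alone only the intervals with no LPS peak within 1000 bp left 1432 intervals, and setting the GC list against the 2 IRF8 lists alone gave 1617. Of the whole GC list, 202 intervals overlapped an IRF8 peak at 72 h, 192 an IRF4 peak at 48 h, 172 an IRF4 peak at 72 h and 46 an IRF8 peak at 48 h. The IRF8 list at 48 h was the shortest, with 234 peaks.

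GC-alone intervals were narrower than shared ones. Their median width was 1104 bp (quartiles 895 and 1391 bp, range 406 to 3739 bp), against 1333 bp (quartiles 1082 and 1690 bp) for shared intervals. With the GC list divided by width into 4 groups of nearly equal size, 90.6% of the narrowest intervals were alone. The share was 82.9% in the next group, 79.2% in the one after and 68.2% in the widest. A wider interval has more room to meet a peak, so width was not tested, and sequence at interval centres was read from windows of one length.

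**Figure D1:**
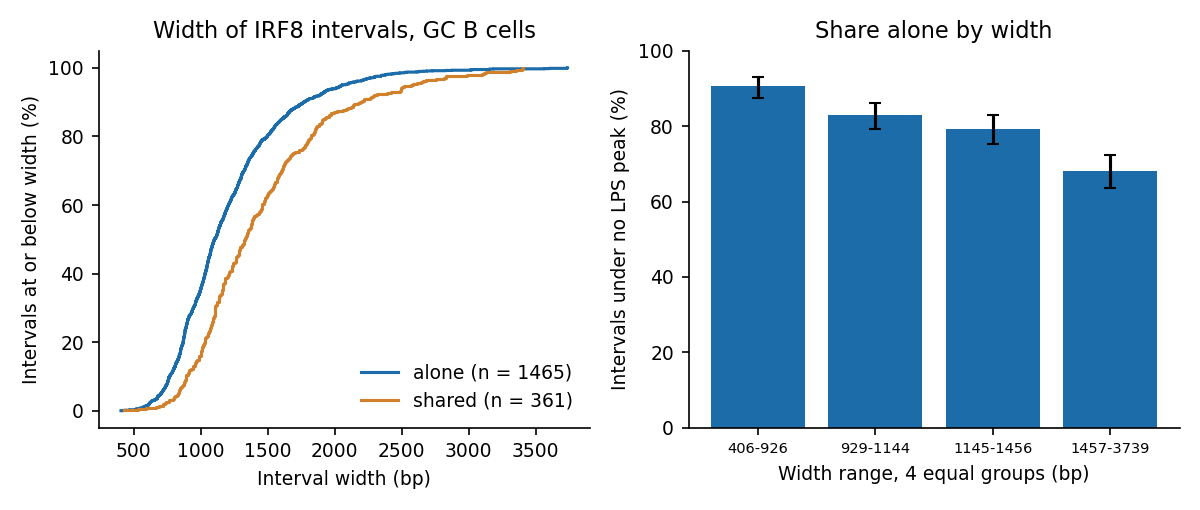
Left, the cumulative share of GC IRF8 intervals (%) against interval width (bp) for 1465 alone and 361 shared intervals; right, the share of intervals under no LPS peak (%) in each of 4 groups by width, with exact 95% intervals. The alone curve lies to the left of the shared one, and the share alone falls from 90.6% in the narrowest group to 68.2% in the widest.

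The widest single-copy GC-alone interval (3739 bp) lay closest to Fam5b, 298.558 kb downstream of its nearest TSS. Next came an intron of Tm6sf1 (3733 bp) and the promoter of Gadd45g (3605 bp), a stress-induced growth arrest gene. An intron of Cd47, which codes for the surface protein that inhibits phagocytosis, held an interval of 3018 bp. Of the GC-alone intervals, 8.53% were multi-copy, meaning that the median 24-base word within 100 bp of the centre occurs more than 1 time in mm9, against 4.71% of shared intervals. The sources used here do not say how the authors placed reads from repeats. Chromosome X held 15 GC-alone intervals and no shared one.

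Promoters took a larger share of GC-alone than of shared intervals. Of the GC-alone intervals, 434 (29.6%, exact 95% interval 27.3 to 32.0%) had their centre within 1000 bp of an annotated TSS, against 73 shared intervals (20.2%, 16.2 to 24.7%). The odds ratio was 1.66 (Fisher's exact test, two-sided, p = 3.004e-04). The difference was no longer past 0.05 when an interval had to lie over a TSS (22.7% against 19.9%, Fisher's exact p = 0.289), or among intervals at or above the median width of the GC list (28.2% against 23.8%, Fisher's exact p = 0.204). Introns held 34.5% of GC-alone and 39.1% of shared centres, and intergenic sequence held 33.6% and 39.3%. Coding exons held 18 GC-alone centres (1.23%) and no shared one.

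**Figure D2:**
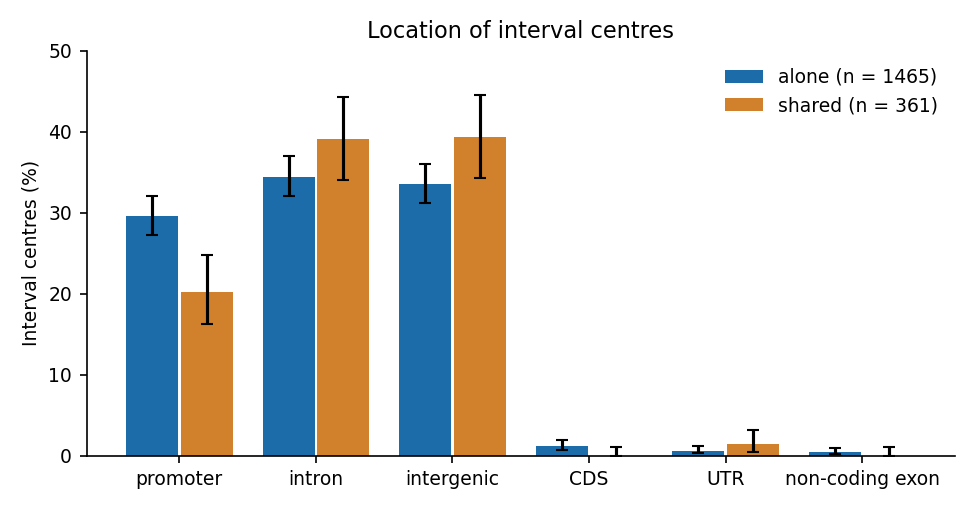
Share of interval centres (%) in each annotated location for 1465 alone and 361 shared intervals, with exact 95% intervals as bars. Promoters (centre within 1000 bp of a TSS) hold 29.6% of alone and 20.2% of shared centres, and introns and intergenic sequence hold most of the rest.

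Compared with shared promoter intervals, GC-alone promoter intervals were richer in CpG dinucleotides. Their median G+C content was 56.0% (quartiles 50.2 and 61.4%), against 50.6% at shared promoters. The observed count of CpG over that predicted from base composition was 0.641 at the median, against 0.487 at shared promoters. GC-alone promoter intervals were also narrower, with a median of 1082.5 bp against 1543 bp. At 74 of the 434 GC-alone promoters (17.1%), TSSs of both strands lay within 1000 bp of the centre, as at 9 of 73 shared promoters (12.3%). Away from promoters, GC-alone intervals had a median G+C content of 44.7%, against 46.0% for distal shared intervals.

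The ISRE was the commonest IRF element in GC-alone intervals and was concentrated there over neighbouring DNA. It occurred in 549 of the 1464 intervals with complete sequence in interval and flank (37.5%). Of flanks of the same width placed 1000 bp to the lower-coordinate side, 235 (16.1%) held it. The interval alone held it in 457 pairs and the flank alone in 143 (exact McNemar test, adjusted over 14 motifs, p = 4.666e-38). Promoter intervals (32.3% against 15.2%, adjusted exact McNemar p = 9.247e-09) and distal intervals (39.7% against 16.4%, adjusted exact McNemar p = 4.653e-30) both showed this. The longer form, GAAANNGAAACT, which contains the ISRE, stood in 6.22% of GC-alone intervals and 0.888% of flanks (adjusted exact McNemar p = 4.288e-15). In 500 bp windows around the first TSS of each of 22344 protein-coding gene identifiers with a complete window, 5.49% held an ISRE and 4.30% an EICE. In windows of that length around GC-alone promoter centres, which can lie up to 1000 bp from a TSS, 18.7% held an ISRE and 7.37% an EICE.

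The EICE was less common and only modestly above the flanks. It occurred in 277 GC-alone intervals (18.9%) and in 183 flanks (12.5%, adjusted exact McNemar p = 3.349e-06). At promoters the EICE stood in 13.4% of GC-alone intervals and 12.4% of flanks, which did not pass the test (adjusted exact McNemar p = 0.821), and away from promoters in 21.3% and 12.5% (adjusted exact McNemar p = 2.556e-07). The PU.1-type ETS word GAGGAAGT, searched by itself, was in 14.5% of GC-alone intervals and 7.79% of flanks (adjusted exact McNemar p = 4.731e-08), a difference that did not pass at promoters alone (12.4% against 9.91%, adjusted exact McNemar p = 0.476).

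The AP-1 site, TGAGTCA or TGACTCA, stood in 21.7% of GC-alone intervals and 18.2% of flanks (adjusted exact McNemar p = 0.0287). That difference was not past 0.05 against the flank on the other side (19.8%, adjusted exact McNemar p = 0.337) or a flank 5000 bp away (19.4%, adjusted exact McNemar p = 0.173). The composite AP-1 and IRF elements, which both contain the AP-1 site, were rare: AICE1 was in 6 GC-alone intervals and 5 flanks, and AICE2 in 9 intervals and 10 flanks.

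Words common at CpG-rich promoters were also above the flanks. The GC box GGGGCGGGG was in 10.7% of GC-alone intervals and 4.10% of flanks (adjusted exact McNemar p = 1.328e-11), and the ETS word CCGGAAGT, of the kind bound by GABP and ELF factors, was in 3.69% and 0.820% (adjusted exact McNemar p = 2.816e-07). Both were largely promoter features: the GC box stood in 25.6% of GC-alone promoter intervals but 4.47% of distal ones, and CCGGAAGT in 9.22% and 1.36%. Over all protein-coding promoters, 17.6% of 500 bp windows held the GC box and 5.77% held CCGGAAGT, against 9.68% and 4.61% of GC-alone promoter centres. The NF-kappaB site was in 15.6% of GC-alone intervals and 11.1% of flanks (adjusted exact McNemar p = 5.715e-04), and the NRF1 site in 10 intervals and 1 flank (adjusted exact McNemar p = 0.0205). The NF-kappaB difference did not pass among distal intervals (adjusted exact McNemar p = 0.503) or wide ones (adjusted exact McNemar p = 0.0809), nor did that of NRF1 against a flank 5000 bp away (adjusted exact McNemar p = 0.0675). The octamer ATGCAAAT (7.86% against 6.76%), the CTCF core (1.16% against 1.02%) and the CCAAT box, searched as CCAATCAG, CCAATCGG, CCAATGAG and CCAATGGG (11.4% against 11.6%), did not pass the test.

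**Figure D3:**
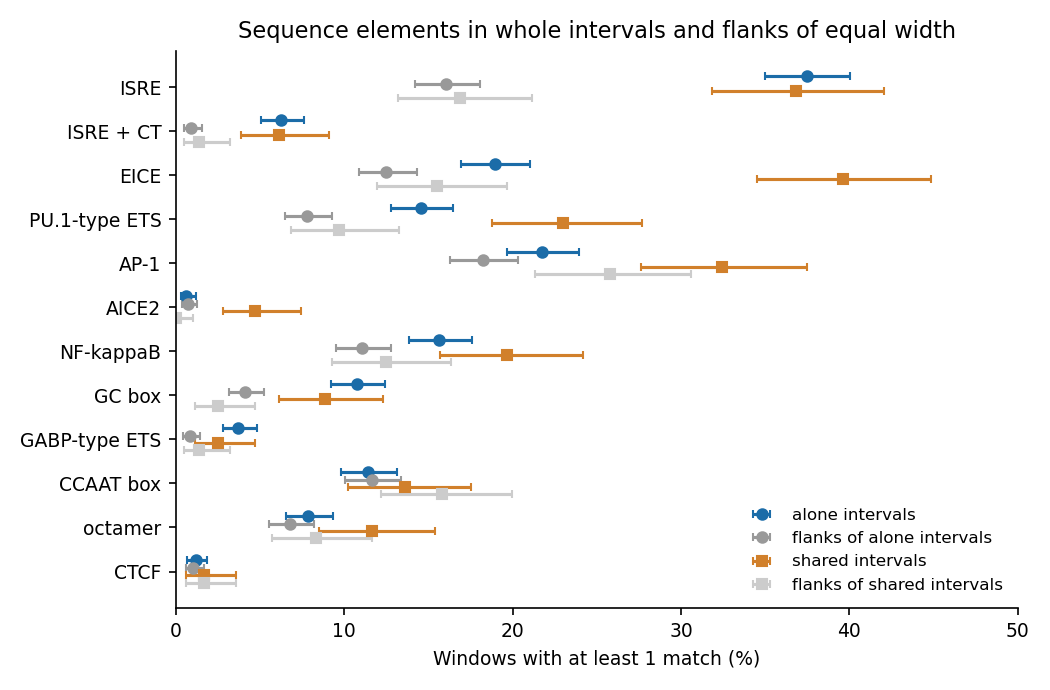
Share of windows with at least 1 match (%) for 12 of the 14 motifs in whole intervals and in flanks of equal width, for alone intervals (blue circles, flanks in dark grey) and shared intervals (orange squares, flanks in light grey), with exact 95% intervals. The ISRE stands at 37.5% in alone and 36.8% in shared intervals, whereas the EICE stands at 18.9% in alone and 39.6% in shared intervals.

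GC-alone and shared intervals differed in the ETS and AP-1 elements. In windows of 250 bp on each side of the centre, 11.1% of GC-alone intervals (9.56 to 12.8%) held an EICE, against 24.1% of shared ones (19.8 to 28.9%), an odds ratio of 0.394 (Fisher's exact test, adjusted over 14 motifs, p = 1.869e-08). The EICE was less frequent in GC-alone intervals at promoters (7.37% against 17.8%, adjusted Fisher's exact p = 0.0327) and away from them (12.7% against 25.7%, adjusted Fisher's exact p = 4.335e-06). It was so below the median width (9.60% against 28.1%) and at or above it (12.9% against 22.1%). The AP-1 site stood in 9.76% against 18.8% (adjusted Fisher's exact p = 3.126e-05) and GAGGAAGT in 8.60% against 17.2% (adjusted Fisher's exact p = 3.126e-05). AICE2 was in 6 of 1465 GC-alone windows and 11 of 361 shared ones (adjusted Fisher's exact p = 2.156e-04), and AICE1 in 2 and 4 (adjusted Fisher's exact p = 0.0451), a call that ended in every alternative run. Promoters alone showed no difference past 0.05 for GAGGAAGT (6.91% against 9.59%, adjusted Fisher's exact p = 0.810) or AICE2 (adjusted Fisher's exact p = 0.403). The shared intervals were selected through lists that include 2 of IRF4, and with the IRF8 lists alone the AP-1 difference was 10.9% against 16.7% (adjusted Fisher's exact p = 0.0549) while that of the EICE was 11.6% against 29.7% (adjusted Fisher's exact p = 1.907e-09).

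The ISRE as a whole did not differ between the classes past the threshold, at 25.5% of GC-alone centres (23.2 to 27.8%) and 21.9% of shared ones (17.7 to 26.5%; adjusted Fisher's exact p = 0.303). Promoter and distal intervals went opposite ways. At promoters the ISRE was in 18.7% of GC-alone and 34.2% of shared centres (adjusted Fisher's exact p = 0.0324), and away from promoters in 28.3% and 18.8% (adjusted Fisher's exact p = 0.00305). Without intervals that hold a purine run of 50 or more bases, the promoter values were 17.9% and 35.2% (adjusted Fisher's exact p = 0.00967) and the distal ones 21.1% and 17.98% (adjusted Fisher's exact p = 0.380), so the distal difference was not past the threshold there. A comparison of the promoter and distal differences with each other was not tested.

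Purine runs, here at least 50 consecutive bases of A or G on one strand, were a class chosen after their values were seen and are given without a test. They stood in 156 GC-alone intervals (10.6%, 9.11 to 12.3%), in 7.86% and 8.94% of the flanks on the lower and higher side, and in 23 shared intervals (6.37%). With a minimum of 30 bases, the order of the classes turned, at 17.7% of GC-alone and 18.8% of shared intervals. Of the 156 GC-alone intervals with a run of 50 or more bases, 131 (84.0%) held an ISRE match, as did 16 of the 23 shared ones (69.6%, 47.1 to 86.8%). Of the flanks of GC-alone intervals with such a run, 36 of 115 lower ones (31.3%) and 39 of 131 higher ones (29.8%) did. At least 5 ISRE matches were found in 114 GC-alone intervals (7.78%), in 1 lower flank (0.0683%), in 1 higher flank and in 12 shared intervals (3.32%). Of those 114, 106 held a purine run. The runs had a median length of 169 bases and reached 601 bases.

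Of the 156 purine run intervals, 14 were at promoters (8.97%), beside 29.6% of all GC-alone intervals. A further 48 (30.8%) lay more than 50000 bp from every protein-coding TSS, beside 19.2% of all GC-alone intervals. Multi-copy sequence made up 55 of them (35.3%), beside 8.53%. Examples in introns were those of Cdk14 (37 ISRE matches, run of 400 bases), Rdx (38 matches, 460 bases) and Prom1 (34 matches, 464 bases), with at most 3 EICE matches each. Others held both elements in number, such as an intron of Brip1 with 24 ISRE and 19 EICE matches and an interval near Vash1 with 27 and 19. The interval near Tmem33 had 8 EICE matches, no ISRE and a longest run of 49 bases, just under the minimum.

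Outside purine runs, the concentration of ISREs persisted and had a preferred spelling. Among pairs in which neither window held a run, 31.5% of GC-alone intervals and 14.5% of flanks held an ISRE (adjusted exact McNemar p = 9.378e-22), and 16.0% and 11.9% an EICE (adjusted exact McNemar p = 0.00905). Spellings were counted without pairing, in the 1308 GC-alone intervals and, separately, the 1349 lower flanks that held no run. By the 2 free bases of the ISRE, the form with CT was in 7.19% of GC-alone intervals and 0.815% of flanks, GT in 6.04% and 0.964%, and CC in 3.67% and 0.297%. The form with GC, as at Psme1 in the windows above, was in 18 intervals and no flank. The forms with CC and GC make a CpG with the second GAAA, and flanks were not matched to intervals for CpG content. The form with AA was nearer to its flank level, at 4.05% and 2.89%, and that with TA stood at 1.15% and 1.19%. Of the EICE forms, GT was in 3.82% of GC-alone intervals, 0.667% of flanks and 16.0% of shared intervals, and CT in 0.765%, 0.519% and 6.51%. The EICE forms rich in purines did not show such a gap, AA standing in 2.06% of GC-alone and 2.66% of shared intervals. These spellings were not tested one by one.

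Over whole intervals, which are wider in the shared class, 28.2% of all GC-alone intervals held an ISRE without an EICE, 9.62% an EICE without an ISRE and 9.28% both. Neither was found in 775 (52.9%, 50.3 to 55.5%), against 36.8% of shared intervals. In 611 (41.7%) no ISRE, EICE or AP-1 site was found, against 25.2% of shared intervals. Complete sequence was available for 1464 of the 1465 GC-alone intervals, and the one without it was counted as holding no element.

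ISREs gathered at interval centres. In intervals with no purine run within 1000 bp of the centre, the ISRE stood in 4.29 to 5.42% of GC-alone intervals in each of the 4 bins of 100 bp around the centre, and in 1.62% and 0.971% in the outermost bins. The EICE reached 2.18% in the bin just before the centre of GC-alone intervals and 7.44% in that of shared ones. AP-1 sites reached 2.83% in that bin of GC-alone intervals and 7.77% in that of shared ones. Along genes, ISREs at the 412 protein-coding TSSs of GC-alone promoters were most frequent in the 100 bp before the TSS, at 5.58%, against 1.31% over all protein-coding genes and 8 of 70 shared promoters (11.4%). They stood at 1.70% in the 100 bp after the TSS, against 0.918% over all genes and 4.29% of shared promoters.

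**Figure D4:**
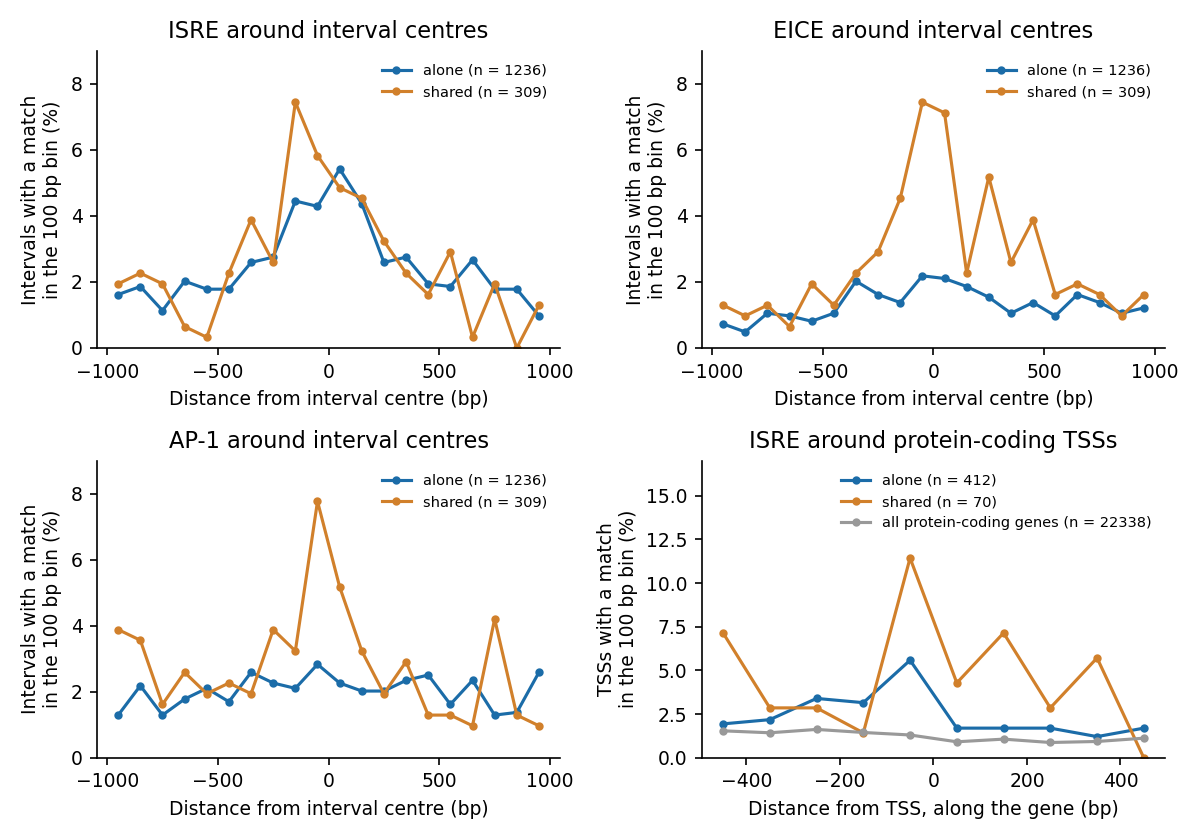
Share of windows with a match in each 100 bp bin (%): the ISRE, EICE and AP-1 site by distance from the interval centre (bp; 1236 alone and 309 shared intervals with no purine run in the window), and the ISRE by distance from protein-coding TSSs (bp; 412 alone promoters, 70 shared promoters and the first TSS of 22338 gene identifiers with a complete window). The ISRE is raised within 200 bp of the centre in both classes, highest in the bin after the centre for alone intervals (5.42%) and 100 to 200 bp before it for shared ones (7.44%); the EICE and AP-1 site reach 7.44% and 7.77% in the bin before the centre of shared intervals and 2.18% and 2.83% in that of alone ones, and the ISRE of alone promoters is highest in the bin before the TSS, at 5.58%.

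The nearest protein-coding TSS lay within 50000 bp of 1183 GC-alone intervals, which gave 1087 genes. These are 4.89% of the 22208 protein-coding genes, counted by symbol, and 416 genes (1.87%) had a GC-alone interval at a promoter. Shared intervals were assigned to 294 genes (1.32%), and LPS peaks to 1771 (7.97%). Of the 1087 genes, 48 also had a shared interval and 240 (22.1%) had an LPS peak elsewhere in their neighbourhood. The 1039 without a shared interval included 192 (18.5%) with an LPS peak, so most of the 1087 genes had neither. Nearness does not show that an interval acts on a gene, and long genes with several TSSs have more room for intervals.

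Genes of antigen processing for MHC class I were the list with the largest share of members. Of its 17 members in the annotation, 8 had a GC-alone interval (47.1%, beside 4.89% of all genes). All 8 had it at a promoter, beside 416 of the 1087 genes with a GC-alone interval. None of the 8 was assigned a shared interval or LPS peak. Of all 1087 genes with a GC-alone interval, only 4.42% had a shared interval and 22.1% an LPS peak, so most lacked both. Other members of the list had them: 4 of the 17 had a shared interval, beside 1.32% of all genes, and 5 had an LPS peak, beside 7.97%. An ISRE stood in 7 of those 8 promoter intervals, beside 32.3% of all GC-alone promoter intervals. The interval of Psme1 was 1763 bp wide (chr14:56196494-56198256) with its centre on the TSS, and that of its partner subunit Psme2 (chr14:56209055-56210358) was centred 6 bp from the TSS. B2m, the light chain of MHC class I, had its interval (chr2:121972629-121974187) centred 14 bp from the TSS, with 1 ISRE and no EICE. Tap1 and Tap2, which form the peptide transporter of the endoplasmic reticulum, each had 1 ISRE, in intervals of 1291 and 570 bp centred 178 and 92 bp from their TSSs. The non-classical class I gene H2-T23 had a 1528 bp interval with 1 ISRE, in sequence of median copy number 2. Nearest LPS peaks were 144903 bp away for Psme1, 132801 bp for Psme2 and 503805 bp for B2m. They were 6346 bp away for Tap1, 5754 bp for Tap2 and 6239 bp for H2-T23. Peaks are assigned to the gene with the nearest TSS, so one assigned to another gene can lie close by.

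Of the interferon-stimulated antiviral genes, 11 of 40 had a GC-alone interval (27.5%). For 10 of the 11 it was at a promoter, beside 416 of the 1087 genes with a GC-alone interval. An ISRE stood in 8 of these 10 promoter intervals. An LPS peak was assigned to 6 of the 40, and 9 of the 11 had neither a shared interval nor an LPS peak. Most genes with a GC-alone interval had neither: 1039 of the 1087 had no shared interval, and only 192 of those (18.5%) had an LPS peak. Irf7, the regulator of type I interferon, had an interval of 2294 bp centred 1 bp from its TSS with 2 ISREs. Isg15, a ubiquitin-like modifier, had 3 ISREs in an interval centred 16 bp from the TSS. Isg20, an exonuclease, and the RNA sensors Ifih1 and Dhx58 each had 1 ISRE in intervals centred 36, 59 and 123 bp from their TSSs. The interval of Isg20 had an LPS peak 436 bp away, whereas the gap was 691065 bp at Isg15 and 184856 bp at Ifih1. At Ifi35 the promoter interval had no ISRE. Of the interferon-induced GTPase genes, 5 of 16 had a GC-alone interval (31.2%), at the promoters of Tgtp1, with 1 ISRE and 1 EICE, and Gbp9, with neither, and at a distance from Gvin1, Ifi47 and Gbp2. The Gbp9 interval lies in sequence of median copy number 2. The intervals at Gbp2 and Ifi47 hold purine runs of 179 and 92 bases, with 21 matches and 1 match of the ISRE. Of the 16 GTPase genes, 6 had an LPS peak, and 4 of the 5 with a GC-alone interval had neither a shared interval nor an LPS peak.

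The list of B lineage transcription factors includes the RNA-binding protein gene Zfp36l1, and 7 of its 23 genes had a GC-alone interval (30.4%). An LPS peak was assigned to 16 of the 23, beside 7.97% of all genes. Of the 7 genes, 3 had neither a shared interval nor an LPS peak. A GC-alone interval was at a promoter for 1 of the 7 genes, beside 416 of the 1087 genes with a GC-alone interval. That gene was Ikzf1, whose interval (chr11:11586138-11587003) held no ISRE, EICE or AP-1 site. Bach2, a repressor of plasma cell differentiation, had 2 GC-alone intervals. One was intergenic (chr4:32302599-32304797) at -22.1 kb and one in an intron (chr4:32488222-32489515) at -15.5 kb, each from the TSS nearest to it. A shared interval in an intron (chr4:32336665-32338488), at 2.84 kb, overlapped an IRF4 peak at 48 h. These distances are not from one TSS. Neither of the 2 GC-alone intervals held an ISRE or EICE. Etv6 had a shared interval at a promoter (chr6:133985142-133986254) and 2 GC-alone intervals. One was in an intron (chr6:134170204-134171281) at -12.9 kb and one was intergenic (chr6:134238413-134239308) at 41.3 kb. Each distance is from the TSS nearest to that interval, and not from the promoter with the shared interval. Foxp1, the early B cell factor gene Ebf1 and the differentiation inhibitor gene Id3 had 1 each, of which that at Foxp1 held an EICE. Only 1 of the 9 intervals of this list held an ISRE, that in Zfp36l1, which codes for an RNA-binding protein. An EICE was in 2 of the 9.

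Among GC genes, 7 of 29 had a GC-alone interval (24.1%). An LPS peak was assigned to 11 of the 29, beside 7.97% of all genes, and 3 of the 7 had neither a shared interval nor an LPS peak. The chemokine receptor Cxcr4 had 2 GC-alone intervals, at 0.877 kb and -25.4 kb, both with an EICE. The first also holds a purine run of 161 bases. Cxcr5, the receptor that guides B cells to follicles, had one in an intron at 4.48 kb, and S1pr2, which retains cells in the GC, had one at -2.83 kb with an AP-1 site. Mybl1 had one at -3.20 kb with the EICE printed above. Of 19 plasma cell genes, 5 had a GC-alone interval (26.3%). Of the 19, 7 had an LPS peak, and 1 of the 5 had neither a shared interval nor an LPS peak. Prdm1 had an interval (chr10:44248963-44249949) at -1.15 kb with the ISRE printed above and an AP-1 site, 84306 bp from the nearest LPS peak. Irf4 had an 810 bp interval at -10.8 kb with 2 ISREs (chr13:30829846-30830655), 4854 bp from an LPS peak. Tnfrsf13b, the receptor TACI, had one at its promoter without these elements.

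Of 29 B cell receptor signalling genes, 8 had a GC-alone interval (27.6%). An LPS peak was assigned to 15 of the 29, beside 7.97% of all genes, and 3 of the 8 had neither a shared interval nor an LPS peak. The kinase gene Lyn had 2 GC-alone intervals, one at its promoter and one at -29.7 kb with an EICE. The adaptor gene Grb2 had one at its promoter. Intervals near Fcgr2b and Fcrla, both of Fc receptor families, held no ISRE or EICE, and those of Prkcb and Pik3cd held 1 ISRE and 1 EICE in turn. Of 30 Toll-like receptor and NF-kappaB genes, 7 had a GC-alone interval (23.3%), among them the promoters of Tlr6, with 2 ISREs, and Rel, with none. In this list 9 of the 30 had an LPS peak, and 4 of the 7 had neither a shared interval nor an LPS peak.

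The MHC class II list had 3 of 18 members (16.7%), and each of the 3 also had a shared interval. Ctss had a GC-alone interval at its promoter, with the ISRE printed above, 4772 bp from an LPS peak, and a shared one at -5.37 kb with an EICE that overlapped an IRF8 peak at 72 h. Cd83, which stabilises MHC class II at the surface, had 3 GC-alone intervals, 2 of them beside a shared interval that overlapped 3 LPS peaks.

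The other lists were lower or close to these. Chromatin regulators had 5 of 25 (20.0%), with promoter intervals at Dnmt3a, which held 1 ISRE, and Mll2. Cell cycle genes had 5 of 30 (16.7%), including the promoters of Ccnd1, with 2 ISREs, and of E2f1 and Cdkn2a, with none. Apoptosis genes had 2 of 25 (8%), the promoters of Cflar and Bak1, both with 1 ISRE. DNA repair genes of antibody diversification had 2 of 25 (8%), at the promoter of Apex1 and in an intron of Mre11a within a purine run of 157 bases. The IRF family had 2 of 9, Irf7 and Irf4. T cell genes, a list of another cell type, had 3 of 20 (15%), among them Lck and Ctla4, and macrophage and dendritic cell genes had 0 of 20. In all, 76 of 356 different list genes had a GC-alone interval, and 15 of the 16 lists stood above the 4.89% of all genes. The lists were set beside all protein-coding genes, expressed or not. An excess over all genes was common to most lists and not particular to one, and its cause was not tested.

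**Figure D5:**
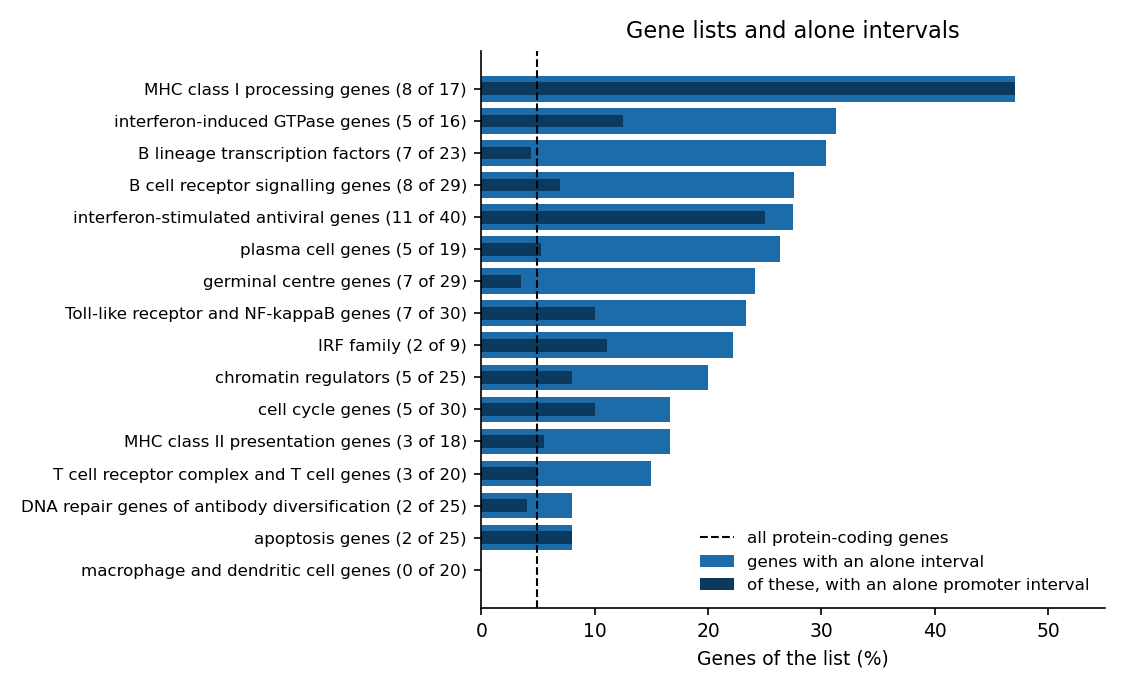
Share of the members of each gene list (%) with a GC-alone interval nearest to them within 50000 bp (light bars) and at a promoter (dark bars), with the count of genes in brackets and the 4.89% of all protein-coding genes as a dashed line. For the 8 MHC class I processing genes and 10 of the 11 antiviral genes the interval is at a promoter. It is for 1 of the 7 genes from the list of B lineage transcription factors, and for 416 of all 1087 genes with a GC-alone interval.

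Several GC-alone intervals were assigned to 82 genes: 70 had 2, 11 had 3 and Elmo1 had 5. Of the 82 genes, 45 (54.9%) also had an LPS peak elsewhere, beside 22.1% of all genes with a GC-alone interval and 7.97% of all genes. Counting only intervals within 10000 bp of a TSS left 31 such genes. Elmo1, which codes for a scaffold of Rac activation, had intervals of 2875 and 1830 bp at 2 of its promoters and 3 more in introns, at 35.6, 22.6 and 23.97 kb from the nearest TSS. Only 1 of the 5 held an ISRE and none an EICE, and 1 lay 501 bp from an LPS peak. The receptor gene Il3ra had 3 intervals in a row (chr14:15180015-15180986, chr14:15181189-15183058 and chr14:15183566-15184744), of which 2 held an EICE and 1 of these an ISRE as well. Tec, a kinase of B cell receptor signalling, had 3, of which 2 were at its promoter. The transcriptional repressor gene Tgif1 had 3, all at promoters and with no ISRE or EICE. Il10, the cytokine gene, had 3, at -30.5, -9.05 and 1.53 kb, and the first held 1 ISRE and 1 EICE. Ly6e, an interferon-inducible surface protein gene, had 3 GC-alone intervals interleaved with 2 shared ones. Close spacing was uncommon in general: 55 of the 1465 GC-alone intervals (3.75%) had another within 1000 bp, and 166 (11.3%) within 20000 bp.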

How the data were processed

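ChIP-seq peak lists of 5 libraries were used. Per the file headers, the authors called the 4 LPS lists with HOMER findPeaks (500 bp peaks, false discovery rate 0.001, 4-fold over the surrounding 10000 bp) from 3065426 to 4375858 tags per library. The deposited signal is the tag count of a peak scaled to 10000000 tags, and the deposited score, fold ratio, p-value and focus ratio fraction, given by the authors' caller, were not used in a test. The deposited GC list holds positions only, called with MACS per the series' text. The sources used here state no depth, cut-off or input for it, so its precision is unknown. The build is mm9 per the labels, and mm9 sequence and the GENCODE M1 annotation were used for location. The IRF8 72 h header marks its tags as a second replicate.

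Intervals were sorted into alone and shared by any overlap. A promoter interval has its centre within 1000 bp of a TSS, and genes are the nearest protein-coding TSS within 50000 bp. Distances in kb are from the TSS nearest to each interval, which can differ between intervals of a gene, and are negative upstream. The 14 motifs were searched on both strands. Shares were compared with Fisher's exact test (alone against shared, 500 bp windows) and the exact McNemar test (interval against flank), two-sided, with Benjamini-Hochberg adjustment over 14 motifs, and have exact Clopper-Pearson 95% intervals, which cover counting error only. The code was tested on simulated data. Python 3.11.15, scipy 1.17.1 and pysam 0.24.0 were used.

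The members, the 16 gene lists (375 of 381 entries found by symbol) and the motifs were chosen with earlier results of these data known. Named genes are up to 15 with the most GC-alone intervals, the 10 widest single-copy intervals, up to 6 members of each list (promoter intervals first, then by number of intervals, then by distance), up to 6 intervals with the most ISRE or EICE matches, and the intervals nearest to the limit. Members on chromosome 18 were counted but are not described singly. A few members and sequences that the rule would name are not reported here.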

Additional observations from a re-analysis of the deposited data

How the results depend on the processing

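Differences in this section are in percentage points, with p-values from Fisher's exact test (alone against shared) or the exact McNemar test (against flanks), adjusted over 14 motifs except for promoters. The excess of ISREs over flanks and the deficit of EICEs against shared intervals kept direction and call in all 8 and 12 alternatives run. The promoter difference was 2.72 (exact p = 0.289) with intervals over a TSS and 4.48 (p = 0.204) for wide intervals, and the cause was not tested. The ISRE difference between classes was -15.6 at promoters, 9.57 away from them (exact p = 0.00305), -3.39 against IRF8 lists alone, -1.57 without purine runs and -17.4 at promoters without purine runs; purine runs were set aside after seeing the data. The EICE excess over flanks was 0.922 at promoters. The AP-1 difference between classes was -7.58 (exact p = 0.0602) in narrow intervals and -5.86 (p = 0.0549) against IRF8 lists alone, and over flanks 1.91 with the other flank, 2.33 with a flank 5000 bp away, 1.15 at promoters and 3.42 in wide intervals. Genes with several intervals numbered 31 within 10000 bp and 131 with no distance limit, by construction of the limit, and list genes numbered 38 with promoter intervals only. For the other motifs with a call, 61 values kept it and 23 did not, 12 of them of AICE1. No paired analysis was possible because each group had 1 library and the sample labels give no replicate numbers. The one replicate mark is that of the IRF8 72 h header, described above.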
